A study of Rattus norvegicus with 4 samples.

Results

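The 43 genes described here act in cholesterol and fatty-acid synthesis under the sterol regulatory element-binding proteins (SREBPs). They include genes of the SREBP switch itself, enzymes of both branches, enzymes of glycerolipid assembly and, for comparison, the 2 sterol exporters Abca1 and Abcg1. They were found by gene symbol in a table of 17778 gene rows. For a symbol with several rows, the row with the highest mean was taken. Of the 43 symbols, 42 had a row. Scd2 had none. The measurements are RNA sequencing of RSC96 cells, an established rat Schwann cell line, starved of serum overnight and then given either recombinant rat IL-22 at 100 ng/ml for 48 h or its solvent alone, 0.1% bovine serum albumin. The labels give no exposure time for the solvent. There were 2 libraries for each treatment, and all 4 came from cells of the same line and passage. Nothing in the labels says that the 2 libraries of a group came from separate cultures, so each p-value is set against the variation among 4 libraries, part or all of which may be technical.

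SREBPs are membrane proteins of the endoplasmic reticulum. When sterols are low, the escort protein SCAP carries them to the Golgi, where proteases release the part that enters the nucleus and switches on genes. INSIG proteins hold SCAP back when sterols are plentiful. The protein encoded by Srebf2 acts mainly on genes of cholesterol synthesis, whereas that encoded by Srebf1 acts mainly on genes of fatty-acid synthesis. Sterol export by ABCA1 and ABCG1 is switched on by the liver X receptors (LXRs), which sense oxidised sterols. Myelinating Schwann cells make much of their own cholesterol and fatty acid, because myelin is rich in both. IL-22 is a cytokine of the interleukin-10 family that signals through STAT3.

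Values are FPKM, fragment numbers scaled to transcript length and to library size. Summed over all rows they came to 630119 to 669549 per library, and 11196 to 11641 rows were above 0. Read totals were not used here, and the spacing of low values put the relative depth of the libraries between 1 and 1.28. Markers of Schwann cells were scarce under both treatments. Of 9 such genes with a row, 7 were under 1 FPKM in every library and 2 were at 0 throughout. Their summed level was 3.0 to 3.2 FPKM with solvent and 2.47 to 2.93 FPKM with IL-22. The defining markers Sox10, S100b and Ngfr reached at most 0.119 FPKM. Of 8 macrophage markers, 6 were under 1 FPKM in every library and 3 at 0, with a sum of 4.19 to 4.47 FPKM with solvent and 3.8 to 6.25 FPKM with IL-22. Fibroblast-associated genes summed to 2300 to 2335 FPKM with solvent and 1857 to 1921 FPKM with IL-22, most of it the intermediate filament gene Vim, which many cultured cells express, at means of 1916 and 1485 FPKM. Thy1, a surface glycoprotein, was at means of 212 and 242 FPKM and the collagen gene Col1a2 at 172 and 146 FPKM. Another collagen gene, Col1a1, was at means of only 10.0 and 6.52 FPKM. Of the 8 fibroblast-associated genes, 3 were under 1 FPKM in every library and 2 of these were at 0 throughout. The part of any such shift in the results below was not tested.

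The genes of this set were mostly higher after IL-22. Of the 42 genes, 30 rose, 2 fell and 10 did not pass the test. The 2 that fell were the exporters Abca1 and Abcg1, included for comparison. The test was limma on log2(FPKM + 1), two-sided, over the 9485 rows whose mean reached 1 FPKM, with Benjamini-Hochberg adjustment and a threshold of 0.05. All 42 genes were among those rows. The response to IL-22 was broad: 58.4% of the tested rows passed, 27.6% as higher and 30.8% as lower. The median difference, IL-22 minus solvent on the log2 scale, was 0.57 over the 42 genes and -0.022 over all tested rows. The 2 IL-22 libraries did not overlap the 2 control libraries for 39 of the 42 genes, beside 80.1% of all tested rows. With a difference of at least 1 log2 unit and no overlap, 10 of the 42 were higher and 1 was lower, beside 4.68% and 2.84% of all tested rows. The 10 were Insig1, Insig2, Hmgcs1, Fdps, Fdft1, Msmo1, Acss2, Scd1, Dgat2 and Lpin1, and the lower gene was Abca1. In bulk RNA, fewer cells expressing a gene and less of its RNA per cell cannot be told apart. The 11 genes span the regulators, both synthesis branches, glycerolipid assembly and export. Permuting 2 libraries against 2 exactly cannot give any gene a p under 0.333, so each call depends on limma's pooling of variance over rows.

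**Figure D1:**
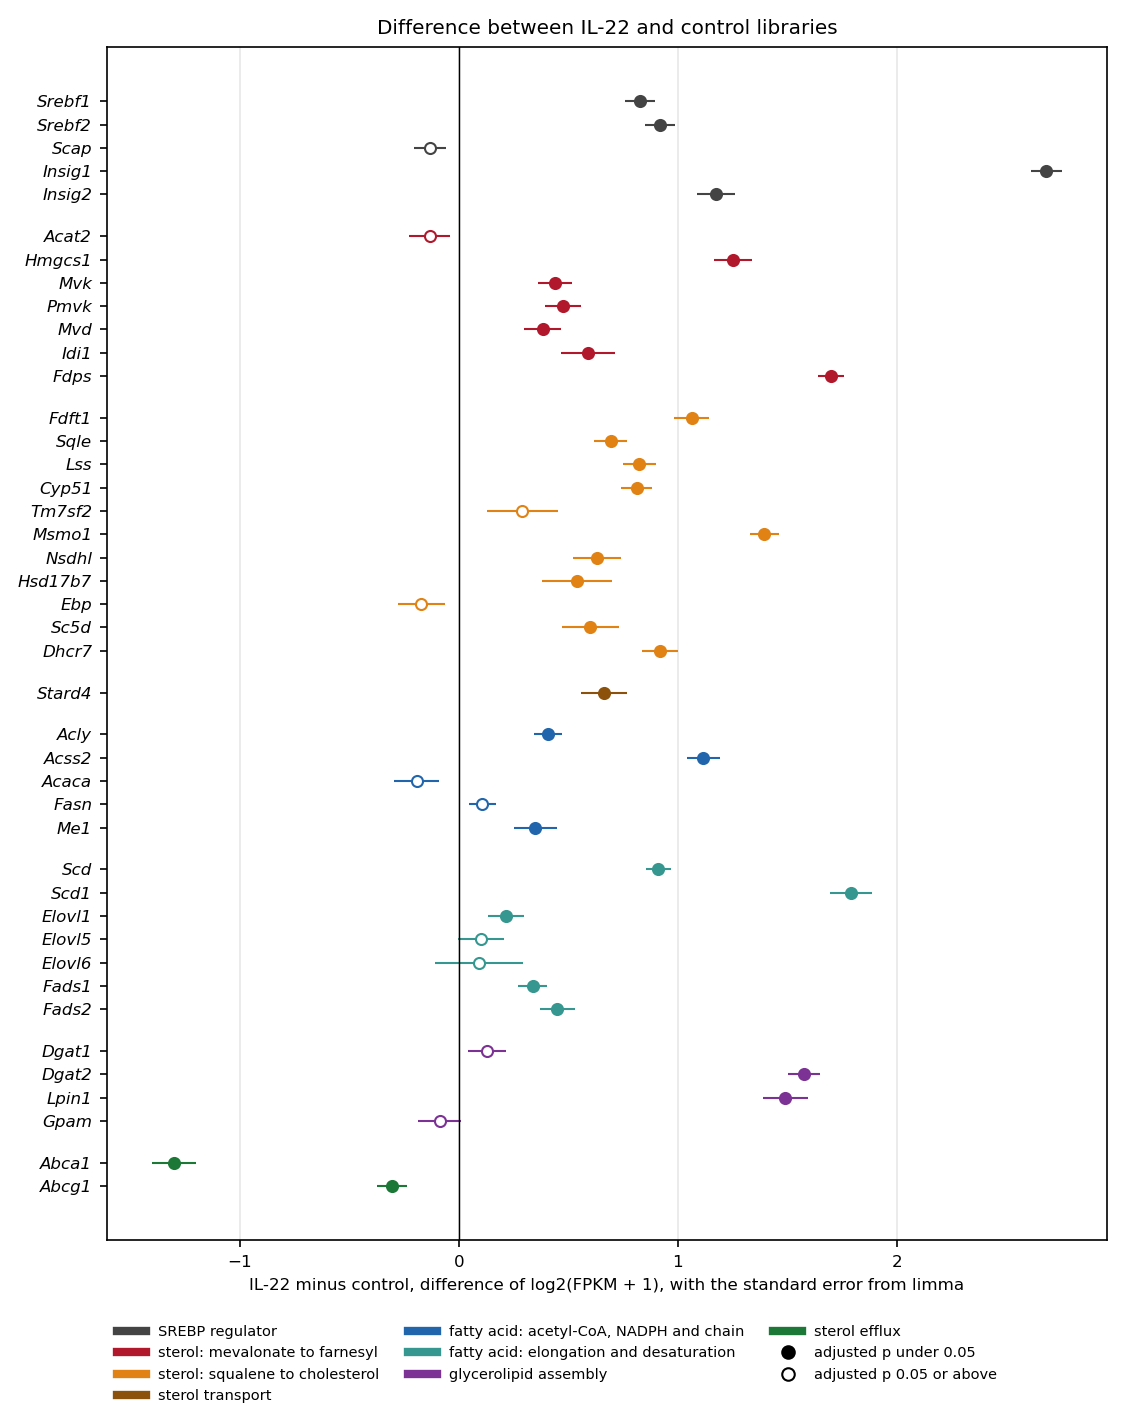
Difference between IL-22 and solvent for each of the 42 genes, in log2(FPKM + 1), grouped by role, with bars of 1 standard error from limma. Insig1, at 2.68, lies farthest to the right and Abca1, at -1.30, farthest to the left, and the genes of the sterol branch lie mostly to the right of 0.

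The start regions of 6 of these genes are shown, because SREBPs are known to act on promoters together with the factor NF-Y, and because 5 of them rose and 1 fell. Each sequence is the 250 bases before the gene's start, from RefSeq on the build GRCr8, read on the gene's strand. The windows are Insig1 at chr4:8057770-8058019 (- strand), Srebf2 at chr7:115543057-115543306 (+ strand), Hmgcs1 at chr2:53382054-53382303 (+ strand), Fdps at chr2:176804817-176805066 (- strand), Msmo1 at chr16:29746863-29747112 (+ strand) and Abca1 at chr5:72596474-72596723 (- strand). Capitals mark matches on either strand to CCAAT (the NF-Y box), CACGTG (an E-box), CACNCCAC (a sterol regulatory element core), ATCACCCCA and CTCACACGA (sterol regulatory elements known from promoters of sterol genes). The last 2 motifs were added after the windows had been read.
Insig1: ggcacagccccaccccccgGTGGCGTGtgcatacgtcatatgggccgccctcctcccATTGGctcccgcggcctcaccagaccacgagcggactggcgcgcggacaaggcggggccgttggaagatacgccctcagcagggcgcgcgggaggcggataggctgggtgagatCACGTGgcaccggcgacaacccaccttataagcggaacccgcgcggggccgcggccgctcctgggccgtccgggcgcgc
Srebf2: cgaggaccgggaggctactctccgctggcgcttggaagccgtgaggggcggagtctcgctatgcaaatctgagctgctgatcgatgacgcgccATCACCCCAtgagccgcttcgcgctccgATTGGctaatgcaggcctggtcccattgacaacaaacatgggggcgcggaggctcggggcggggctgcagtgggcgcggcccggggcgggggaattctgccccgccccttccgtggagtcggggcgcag
Hmgcs1: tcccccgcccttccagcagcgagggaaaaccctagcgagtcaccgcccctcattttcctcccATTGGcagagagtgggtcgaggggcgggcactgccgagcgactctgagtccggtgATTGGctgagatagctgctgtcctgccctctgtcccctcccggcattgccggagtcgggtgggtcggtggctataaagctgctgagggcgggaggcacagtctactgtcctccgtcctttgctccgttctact
Fdps: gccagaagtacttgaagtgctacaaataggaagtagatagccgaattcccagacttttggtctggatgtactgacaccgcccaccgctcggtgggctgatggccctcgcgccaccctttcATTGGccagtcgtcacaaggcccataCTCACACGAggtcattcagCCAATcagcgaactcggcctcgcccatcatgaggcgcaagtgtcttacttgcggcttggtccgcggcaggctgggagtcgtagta
Msmo1: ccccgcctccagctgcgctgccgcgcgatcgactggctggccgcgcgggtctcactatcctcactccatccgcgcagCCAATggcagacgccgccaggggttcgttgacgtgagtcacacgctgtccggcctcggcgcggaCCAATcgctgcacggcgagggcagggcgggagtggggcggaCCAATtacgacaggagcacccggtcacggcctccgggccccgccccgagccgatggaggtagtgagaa
Abca1: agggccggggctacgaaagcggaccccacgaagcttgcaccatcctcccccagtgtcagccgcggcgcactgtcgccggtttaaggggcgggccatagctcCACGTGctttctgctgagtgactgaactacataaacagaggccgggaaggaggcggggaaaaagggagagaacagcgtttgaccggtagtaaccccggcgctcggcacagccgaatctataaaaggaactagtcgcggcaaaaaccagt
In Fdps, CTCACACGA lay 104 to 96 bases before the start, between an inverted NF-Y box at 130 to 126 and a forward box at 85 to 81. In Srebf2, ATCACCCCA lay at 157 to 149, with an inverted NF-Y box at 129 to 125. Hmgcs1 held 2 inverted NF-Y boxes and Msmo1 held 3 forward boxes. Insig1 held a sterol element core, an NF-Y box and an E-box. Abca1 held an E-box and none of the other motifs searched for. No motif of LXRs was among those searched for.

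Windows were found for 30 of the 43 genes. CCAAT occurred in 22 of the 30, beside 34% of all 33469 promoter windows of the same length. The shares over all windows were counted by window, with no filter on expression. The 30 were counted by gene and had all passed the filter of 1 FPKM, so the 2 kinds of share are not strictly alike. It occurred in 12 of 15 sterol-branch windows and 4 of 7 fatty-acid windows. Of the 12 sterol-branch windows of genes that rose, 10 held it, as did 2 of the 3 of genes that did not pass. The windows of Cyp51 and Dhcr7, which rose, held none of the motifs, whereas those of Ebp and Tm7sf2, which did not pass, held CCAAT. The 6 windows shown therefore do not stand for all 30. CACGTG occurred in 5 of the 30 windows, beside 5.59% of all windows. CACNCCAC occurred in 5, those of Acat2, Ebp, Elovl5, Fads1 and Insig1, beside 4.89%. Of these 5, Fads1 and Insig1 rose. ATCACCCCA, held by Srebf2 alone among the 30, occurred in 0.212% of all windows, and CTCACACGA, held by Fdps alone, in 0.0627%. Both were added after the windows had been read, so these shares do not measure how unusual the 2 matches are. A match describes the letters of the window and does not show binding, and a window without one says nothing of sites elsewhere.

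Of the 5 genes of the SREBP switch itself, 4 rose and the escort gene did not pass. Insig1, which encodes a protein that retains SCAP in the endoplasmic reticulum and is itself an SREBP target, was at 20.0 and 18.7 FPKM in the control libraries and 129 and 131 FPKM in the IL-22 libraries. This was 6.70 times the control mean, a difference of 2.68 ± 0.07 (SE) on the log2 scale with a limma adjusted p of 2.75e-08. Insig1 showed the widest difference of the 42 genes. Insig2, its relative, which is known to be less dependent on SREBP, was at 9.71 and 9.33 FPKM in the controls and 23.1 and 22.4 FPKM with IL-22, 2.39 times the control mean (limma adjusted p = 7.11e-06). Both pairs of libraries stood well apart for both genes.

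The 2 genes that encode SREBPs rose by like amounts. Srebf1 was at 68.8 and 65.2 FPKM with solvent and 115 and 124 FPKM with IL-22, a difference of 0.83 ± 0.07 (SE, limma adjusted p = 1.50e-05). Srebf2 was at 63.6 and 65.7 FPKM with solvent and 119 and 127 FPKM with IL-22, a difference of 0.92 ± 0.07 (SE, limma adjusted p = 6.75e-06). The ratio of Srebf1 to Srebf2 was 1.08 and 0.992 with solvent, against 0.969 and 0.977 with IL-22, close to 1 in all 4 libraries. The table has 1 row for Srebf1 and so does not separate its isoforms. Scap, the escort, was at 39.7 and 41.9 FPKM in the controls and 36.9 and 37.4 FPKM with IL-22, and did not pass (limma adjusted p = 0.143). The summed level of Insig1 and Insig2 per unit of Scap was 0.749 and 0.670 with solvent, against 4.11 and 4.10 with IL-22. Within that sum, Insig1 went from 2.06 and 2.01 times the level of Insig2 to 5.58 and 5.84 times.

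**Figure D2:**
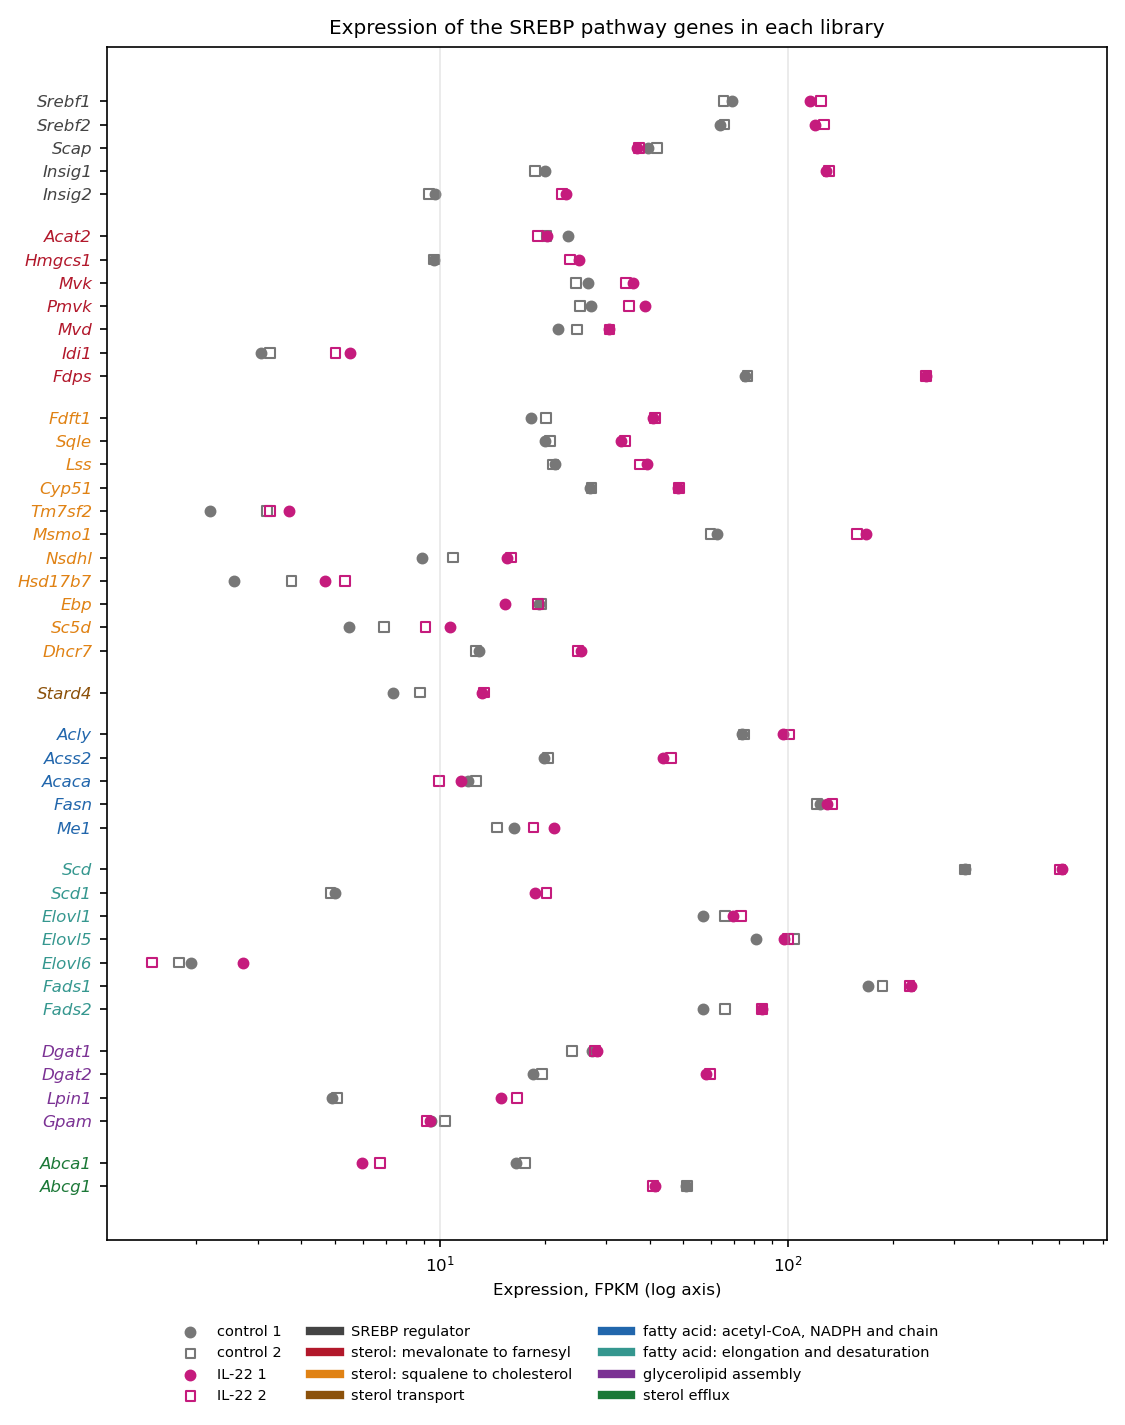
FPKM in each of the 4 libraries, on a log axis, for the 42 genes by role; each symbol is 1 library, grey for control and magenta for IL-22. The IL-22 symbols of Insig1, at 129 and 131 FPKM, stand far above its control symbols at 20.0 and 18.7 FPKM, and those of Abca1 stand below its controls.

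In the part of the sterol pathway that leads from acetyl units to farnesyl diphosphate, 6 of 7 genes rose, with a median difference of 0.48 over the 7. Hmgcs1, which encodes the cytosolic synthase that makes HMG-CoA, was at 9.63 and 9.64 FPKM in the controls and 25.0 and 23.6 FPKM with IL-22, 2.52 times the control mean (limma adjusted p = 4.89e-06). Fdps, which encodes farnesyl diphosphate synthase at the branch point to sterols and prenylated proteins, was at 75.2 and 76.4 FPKM in the controls and 248 and 249 FPKM with IL-22, 3.28 times the control mean. Its difference was 1.70 ± 0.06 (SE, limma adjusted p = 1.47e-07), the widest of the sterol branch. The 4 enzymes between these steps rose by less. The kinases Mvk and Pmvk, which phosphorylate mevalonate, differed by 0.44 and 0.48, and the decarboxylase Mvd by 0.38. Idi1, the isomerase of isopentenyl diphosphate, was low at 3.07 and 3.26 FPKM with solvent and reached 5.54 and 5.02 FPKM after IL-22, a difference of 0.59. Their limma adjusted p-values ran from 0.00112 to 0.00395. Acat2, which encodes the cytosolic thiolase that starts the pathway, was at 23.3 and 20.2 FPKM in the controls and 20.3 and 19.1 FPKM with IL-22 and missed the threshold (limma adjusted p = 0.241).

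From squalene to cholesterol, 9 of 11 genes rose, with a median difference of 0.69 over the 11. Msmo1, which encodes the oxidase that removes methyl groups from the sterol ring, differed most. It was at 62.5 and 59.9 FPKM in the controls and 167 and 158 FPKM with IL-22, a difference of 1.39 ± 0.07 (SE, limma adjusted p = 6.29e-07). Fdft1, which encodes squalene synthase and so commits farnesyl units to sterols, was at 18.3 and 20.2 FPKM in the controls and 41.0 and 41.5 FPKM with IL-22, 2.14 times the control mean (limma adjusted p = 8.03e-06). Dhcr7, the reductase that makes cholesterol from 7-dehydrocholesterol, was at 13.0 and 12.7 FPKM in the controls and 25.4 and 25.0 FPKM with IL-22, a difference of 0.92 ± 0.08 (SE). The libraries of the treatments were far apart for each of these 3 genes. Lss, which encodes the cyclase that closes the sterol rings, and Cyp51, the lanosterol demethylase, differed by 0.82 and 0.81. Sqle, the squalene epoxidase that is a control point of the pathway, differed by 0.69 (limma adjusted p = 7.21e-05). Nsdhl, which works with Msmo1 in demethylation, differed by 0.63 (limma adjusted p = 0.00106).

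The remaining genes of this segment were low or less steady. Sc5d, a sterol desaturase, was at 5.49 and 6.92 FPKM in the controls and 10.7 and 9.10 FPKM with IL-22, and rose by 0.60 (limma adjusted p = 0.00367), though without control library 1 its adjusted p was 0.0523. Hsd17b7, the keto-reductase of the demethylation complex, was at 2.57 and 3.75 FPKM in the controls and 4.67 and 5.34 FPKM with IL-22 (difference 0.54, limma adjusted p = 0.0165). Its call was lost without control library 1, without IL-22 library 2 and with no filter on low values, with adjusted p-values of up to 0.105. Tm7sf2, a sterol reductase, was at 2.19 and 3.19 FPKM in the controls and 3.69 and 3.25 FPKM with IL-22 and did not pass (limma adjusted p = 0.156), but passed as higher without control library 2, at 0.0467. Ebp, the isomerase that moves the ring double bond, was at 19.3 and 19.6 FPKM in the controls and 15.4 and 19.1 FPKM with IL-22 and did not pass (limma adjusted p = 0.196), but passed as lower without IL-22 library 2, at 0.043. Ebp and Acat2 were the only sterol-branch genes with negative differences, -0.17 and -0.13. Stard4, which encodes a carrier of cholesterol between membranes and is a known SREBP target outside the enzyme chain, rose from 7.36 and 8.79 FPKM to 13.3 and 13.4 FPKM (difference 0.66 ± 0.11, SE, limma adjusted p = 0.000698).

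In the fatty-acid chain, 3 of 5 genes rose, and the gain was uneven. Acss2, which encodes the enzyme that makes acetyl-CoA from acetate, was at 19.9 and 20.5 FPKM in the controls and 43.9 and 46.1 FPKM with IL-22, 2.23 times the control mean (limma adjusted p = 4.21e-06). Acly, which makes cytosolic acetyl-CoA from citrate, was at 73.5 and 74.9 FPKM in the controls and 96.7 and 101 FPKM with IL-22, a difference of 0.41 ± 0.06 (SE, limma adjusted p = 0.000611). Both supply the acetyl units that sterol and fatty-acid synthesis share. Me1, a source of the NADPH that chain synthesis uses, differed by 0.35 (limma adjusted p = 0.014), with values of 16.3 and 14.6 FPKM in the controls and 21.3 and 18.6 FPKM with IL-22. Its call was lost without control library 2, without IL-22 library 1 and with no filter on low values, with adjusted p-values of up to 0.116. The enzymes that build the chain did not pass. Acaca, acetyl-CoA carboxylase, was at 12.0 and 12.7 FPKM in the controls and 11.5 and 9.93 FPKM with IL-22 (difference -0.19 ± 0.10, SE, limma adjusted p = 0.134). Fasn, the fatty-acid synthase, was at 124 and 121 FPKM in the controls and 130 and 134 FPKM with IL-22, 1.08 times the control mean (limma adjusted p = 0.165).

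Of the 7 measured genes that lengthen fatty acids or add double bonds to them, 5 rose. Scd, listed as a stearoyl-CoA desaturase, was the most abundant of the 42 genes. It was at 322 FPKM in both controls and 609 and 603 FPKM with IL-22, a difference of 0.91 ± 0.06 (SE, limma adjusted p = 3.47e-06). Scd1 was far lower, at 4.99 and 4.86 FPKM in the controls and 18.8 and 20.2 FPKM with IL-22, 3.97 times the control mean (limma adjusted p = 1.32e-06). The ratio of Scd to Scd1 went from 64.5 and 66.2 with solvent to 32.4 and 29.8 with IL-22. Rat desaturase symbols have been reassigned: RefSeq on GRCr8 lists Scd as an older name of the gene now called Scd2, and Scd1 as an older name of the gene now called Scd. These genes are close relatives, so the split of reads between the 2 rows is uncertain.

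Fads1 and Fads2, the desaturases of polyunsaturated fatty acids, rose modestly. Fads1 was at 169 and 187 FPKM in the controls and 226 and 223 FPKM with IL-22, 1.26 times the control mean (limma adjusted p = 0.00242), and Fads2 was at 57.1 and 66.0 FPKM and then 84.2 and 84.1 FPKM, 1.37 times the control mean (limma adjusted p = 0.0012). Elovl1, an elongase of very long chains, was at 57.0 and 66.0 FPKM in the controls and 69.5 and 73.3 FPKM with IL-22. Its adjusted p of 0.0495 lay just inside the threshold and was above it under 7 of 15 alternative settings. Over the 15, limma gave 0.0141 to 0.221. Elovl5, an elongase of polyunsaturated chains, spread from 81.1 to 104 FPKM in the controls and was at 97.2 and 99.8 FPKM with IL-22 (limma adjusted p = 0.42), though without control library 2 it passed as higher, at 0.0201. Elovl6, which lengthens saturated chains and is a well-known SREBP target, was low, at 1.94 and 1.78 FPKM in the controls and 2.72 and 1.5 FPKM with IL-22 (limma adjusted p = 0.709). Its difference was 0.09. Another row of Elovl6 at a like level, with means of 1.78 and 1.60 FPKM, differed by -0.11 and did not pass either (limma adjusted p = 0.621).

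Of the 4 genes of glycerolipid assembly, 2 rose by more than a log2 unit and 2 did not pass. Dgat2, which encodes an enzyme of the last step of triglyceride synthesis, was at 18.5 and 19.6 FPKM in the controls and 58.2 and 59.7 FPKM with IL-22, a difference of 1.58 ± 0.07 (SE, limma adjusted p = 5.81e-07). Lpin1, a phosphatidate phosphatase one step upstream, was at 4.89 and 5.06 FPKM in the controls and 15.0 and 16.7 FPKM with IL-22, 3.18 times the control mean (limma adjusted p = 4.89e-06). Dgat1, the unrelated enzyme of the same last step, was at 27.3 and 24.0 FPKM and then 28.2 and 27.9 FPKM, short of the threshold (limma adjusted p = 0.221). The ratio of Dgat2 to Dgat1 was 0.679 and 0.818 with solvent, against 2.06 and 2.14 with IL-22, so the order of the 2 genes turned. Gpam, which starts glycerolipid synthesis in mitochondria and is a known target of Srebf1, was at 9.44 and 10.4 FPKM in the controls and 9.35 and 9.16 FPKM with IL-22 (limma adjusted p = 0.467).

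Both exporters fell. Abca1, which moves cholesterol to lipid-poor apolipoprotein, was at 16.5 and 17.6 FPKM in the controls and 5.97 and 6.72 FPKM with IL-22, 37.2% of the control mean. Its difference was -1.30 ± 0.10 (SE, limma adjusted p = 9.61e-06). Abcg1, which passes cholesterol to mature lipoproteins, was at 51 and 51.3 FPKM in the controls and 41.5 and 41.0 FPKM with IL-22, 80.5% of the control mean (difference -0.31 ± 0.07, SE, limma adjusted p = 0.00399). Abcg1 was the more abundant throughout, at 3.09 and 2.92 times Abca1 with solvent, against 6.94 and 6.1 times with IL-22. The ratio of Hmgcs1 to Abca1 went from 0.583 and 0.548 to 4.19 and 3.51. Summed over the 18 sterol enzymes and set against the 2 exporters, the ratio was 5.74 and 5.67 with solvent, against 17.1 and 16.6 with IL-22. Fdps and Msmo1, the most abundant of the 18, weigh most in that sum.

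The sterol branch had the larger median difference of the 2 branches. Of the 18 sterol genes, 15 rose, none fell and 3 did not pass, with a median difference of 0.62. Of the 12 fatty-acid genes with a row, 8 rose, none fell and 4 did not pass, with a median difference of 0.34. Summed FPKM of the sterol genes went from 387 and 391 to 809 and 794, 2.06 times the control mean, and that of the fatty-acid genes from 938 and 994 to 1411 and 1415, 1.46 times. Abundant genes weigh most in these sums: with IL-22, Fdps and Msmo1 were at means of 249 and 163 FPKM, and Scd at 606 FPKM. The medians differed by 0.27, and over the 4 pairings of an IL-22 library with a control library by 0.21 to 0.38. With a pseudocount of 5 FPKM in place of 1 the medians differed by 0.15. The difference between branches was described and not tested. Scd, Acss2 and Scd1 showed the widest differences of the fatty-acid branch, as did Fdps, Msmo1 and Hmgcs1 of the sterol branch.

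**Figure D3:**
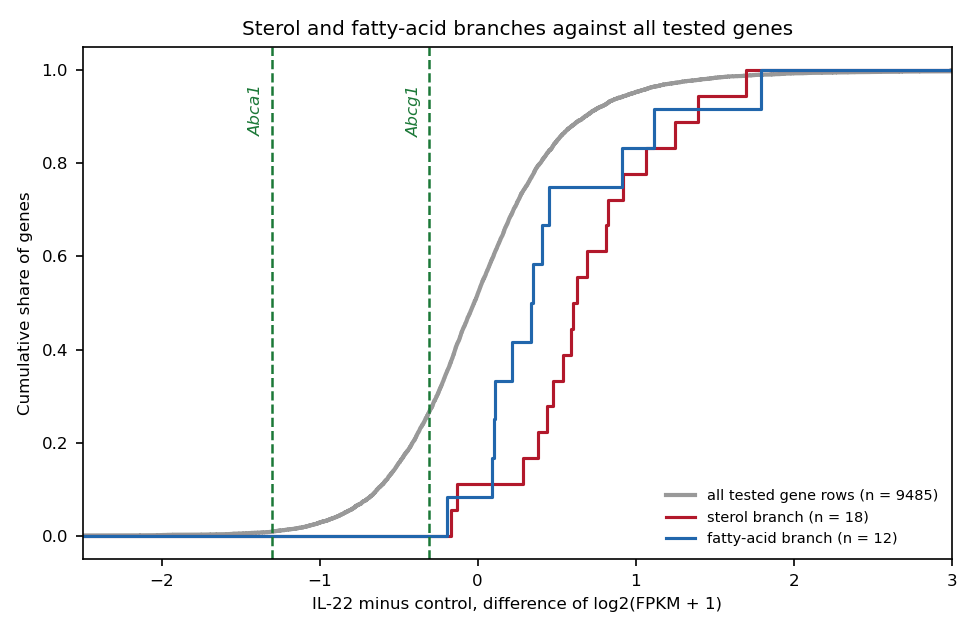
Cumulative share of genes by the difference between IL-22 and control in log2(FPKM + 1), for all 9485 tested rows (grey), the 18 sterol genes (red) and the 12 fatty-acid genes (blue); dashed lines mark the 2 efflux genes. Both branch curves lie to the right of the grey curve, with medians of 0.62 and 0.34, while Abca1 and Abcg1 lie to the left of 0, at -1.30 and -0.31.

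Genes of the same pathways outside the 43 were read from lists of known members. These lists, too, were chosen with earlier results of these data known. The counts of each list stand beside 27.6% higher and 30.8% lower over all tested rows. Of 11 further sterol enzymes and their redox partners, 5 rose, 2 fell and 4 did not pass, with a median difference of 0.21. Acat1, the mitochondrial thiolase, rose by 0.49 from a mean of 28.4 to 40.1 FPKM (limma adjusted p = 0.000631). The 2 that fell were Cyb5b, an outer mitochondrial cytochrome, by 0.50, and Lbr, a nuclear envelope protein with sterol reductase activity, by 0.31. The call on Lbr was lost without IL-22 library 2. Of 18 tested genes of sterol uptake, storage and trafficking, 11 rose, 3 fell and 4 did not pass (median 0.40). Vldlr, a lipoprotein receptor, was at 0.114 and 0.118 FPKM in the controls and 1.85 and 2.09 FPKM with IL-22. It entered the test only through the IL-22 libraries, and with no filter on low values its limma adjusted p was 0.00165. Scarb2, a lysosomal membrane protein, rose by 0.74.

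Further LXR receptors, LXR targets and sterol exporters went in both directions. They were listed together, are called LXR-linked below, and are not all LXR targets. Of 13 tested, 8 rose, 2 fell and 3 did not pass, with a median difference of 0.35. Lpcat3, a phospholipid acyltransferase known as an LXR target, rose from a mean of 102 to 187 FPKM (difference 0.87, limma adjusted p = 1.03e-05). The exporter gene Abcg4 rose by 0.57 from a mean of 2.24 FPKM. Abca5, another transporter gene of the family, was at a mean of 0.636 FPKM with solvent and 1.89 FPKM with IL-22. It too entered the test only through the IL-22 libraries, and with no filter its limma adjusted p was 0.00671. Mylip, which encodes a ubiquitin ligase and is an LXR target, was among the 2 that fell, from a mean of 4.01 to 2.50 FPKM (difference -0.52, limma adjusted p = 0.00732). The receptor genes themselves, picked after their values were seen, were Nr1h2, at a mean of 101 FPKM with solvent and 129 FPKM with IL-22 (limma adjusted p = 0.0016), and Nr1h3, at 1.96 and 1.28 FPKM (limma adjusted p = 0.109).

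Genes of SREBP transport, cleavage, turnover and partnership showed no common direction. Of 27 tested, 6 rose, 8 fell and 13 did not pass, with a median difference near 0 (-0.002). Among all tested rows, 27.6% were higher and 30.8% lower. Of the 3 subunits of NF-Y, whose box is marked in the sequences of Hmgcs1, Fdps and Msmo1, 2 fell. Nfya was at 28.9 and 29.2 FPKM in the controls and 15.6 and 17.2 FPKM with IL-22 (difference -0.79, limma adjusted p = 5.72e-05). Nfyc was at 43.5 and 50.7 FPKM in the controls and 24.5 and 28 FPKM with IL-22 (difference -0.82, limma adjusted p = 0.00012). Nfyb, named to complete the complex after its value was seen, was at a mean of 10.0 FPKM with solvent and 10.7 FPKM with IL-22 (limma adjusted p = 0.521). Prkaa2, a catalytic subunit of the energy sensor AMPK, was at a mean of 0.785 FPKM with solvent and 2.65 FPKM with IL-22. It passed the filter only through the IL-22 libraries, and without a filter its limma adjusted p was 0.015. The other AMPK subunit genes of the list, named after their values were seen, were more abundant and did not rise. Prkaa1 was at means of 9.37 and 10.1 FPKM (limma adjusted p = 0.428) and Prkag1 at 47.2 and 42.1 FPKM (limma adjusted p = 0.101). Prkab1 fell from a mean of 83.1 to 54.3 FPKM (limma adjusted p = 0.000196).

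Among 15 tested fatty-acid synthesis genes outside the 43, 9 rose, 3 fell and 3 did not pass (median 0.31). Slc25a1, which encodes the carrier that brings citrate out of mitochondria to Acly, rose from a mean of 64.9 to 117 FPKM (difference 0.83, limma adjusted p = 1.22e-05). The very-long-chain elongase Elovl4 rose by 0.89. Acyl-CoA synthetases went in both directions: Acsl4, which prefers arachidonate, rose by 0.78, whereas Acsl5 fell from a mean of 77.1 to 38.4 FPKM (difference -0.99, limma adjusted p = 5.57e-05). Among 22 tested genes of glycerolipids and lipid droplets, 9 rose, 5 fell and 8 did not pass (median 0.12). Plin2, which encodes the coat protein of lipid droplets, was at 108 and 100 FPKM in the controls and 267 and 286 FPKM with IL-22, 2.66 times the control mean (limma adjusted p = 7.62e-07). Agpat9, a glycerol-phosphate acyltransferase, rose by 1.05, Lpcat2 by 0.95 and Mogat2, a monoacylglycerol acyltransferase, by 0.83.

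**Figure D4:**
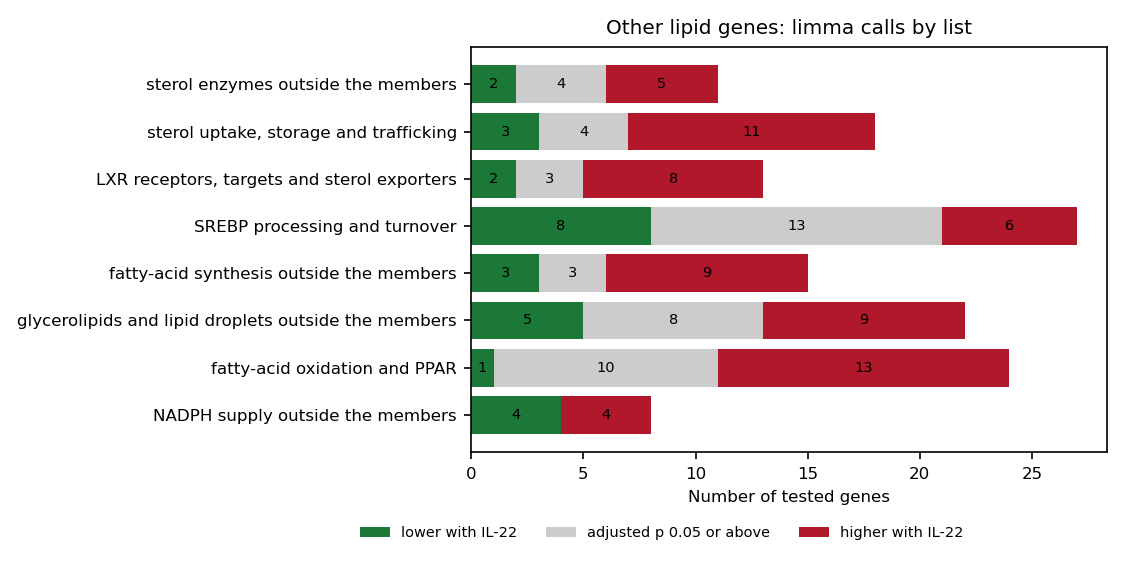
Number of tested genes in 8 lists of lipid genes outside the 43 (called members in the plot) that were lower, not past the threshold or higher by limma after IL-22; each bar is 1 list. Uptake, storage and trafficking has 11 higher of 18, while SREBP processing and turnover has 6 higher and 8 lower of 27.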

How the data were processed

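RNA of 4 RSC96 libraries, 2 per treatment, was sequenced from poly(A)-selected, NEBNext Ultra libraries on an Illumina HiSeq sequencer, per the labels' protocols. The values are FPKM as deposited by the authors; the submitters' processing notes name TopHat2, Cuffdiff and the build rn5, without tool versions. From these, log2(FPKM + 1) was computed, rows with a mean under 1 FPKM were left out, and limma 3.58.1 in R 4.3.3 was fitted to all 9485 remaining rows (empirical Bayes with a mean trend, 2 residual degrees of freedom, Benjamini-Hochberg adjustment). The fit was also run on simulated data with few changed rows and independent noise in each library. Those settings differ from these data, so the run does not give the error rate here. Library totals are not in the FPKM table, so no counting interval is given. The pseudocount understates the change of low genes. Branch medians and counts carry no test of their own.

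The 43 genes and the pathway lists were chosen with earlier results of these data known. All of the 43 with a row could be named, and from each further list up to 4 genes past the threshold, by size of difference, with others only to complete a count of 5 or fewer; some genes that this rule takes are not reported here. Promoter windows came from RefSeq on GRCr8, matched by symbol, with the desaturases Scd and Scd1 left out because of their renaming. The alternatives were other pseudocounts, other filters, quantile and median-of-ratios scaling, no mean trend, a robust fit, summed rows of a shared symbol, a replicate block and leaving out each library.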

Additional observations from a re-analysis of the deposited data

How the results depend on the processing

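Under 15 alternative settings, 28 of the 32 genes called among the 42 kept their call and none turned direction. Elovl1, Hsd17b7, Me1 and Sc5d each lost theirs under at least 1. With a pseudocount of 5 FPKM the sterol median was 0.45 and the difference between branch medians 0.15. Leaving out each library in turn gave a sterol median of 0.54 to 0.75, a fatty-acid median of 0.29 to 0.38, a difference of medians of 0.24 to 0.38, 27 to 31 of the 42 genes higher, 2 to 3 lower, and 0 to 1 sterol gene lower, which was Ebp without IL-22 library 2. Under the same omissions Abca1 differed by -1.37 to -1.23. Among the other lists, the 8 LXR-linked genes that rose were 4 with a mean of at least 5 FPKM, and the 2 that fell were 1 there, with no filter and without either control library or IL-22 library 2. The 3 lower uptake genes and the 2 lower further sterol enzymes were each 1 without IL-22 library 2, and the 1 lower oxidation gene was 0 without control library 1 or IL-22 library 2 and 2 under quantile scaling. With 1 library left in a group, that library is assumed to vary like the other group. A stricter filter of 5 FPKM dropped Idi1, Hsd17b7, Tm7sf2 and Elovl6.

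Replicate numbers are shared by the treatments, but no label pairs them, and deviations of same-numbered libraries correlated at -0.00197. With the replicate number as a block, 30 of the 42 genes were higher and 2 lower, as without it, and 2755 rows were higher and 3070 lower over all rows, in place of 2619 and 2918. Depth limits the low genes: Tm7sf2, Hsd17b7, Idi1 and Elovl6 were under 6 FPKM in all libraries.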

Other observations

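Genes of fatty-acid breakdown were more often higher than lower. Of 24 tested genes of fatty-acid oxidation and its regulators, 13 rose, 1 fell and 10 did not pass. All tested rows were 27.6% higher and 30.8% lower. The median difference was 0.32, beside -0.022 over all tested rows. Hadhb, which encodes a subunit of the mitochondrial trifunctional protein, rose from a mean of 68.1 to 118 FPKM (difference 0.79, limma adjusted p = 2.01e-05). Acads, the short-chain dehydrogenase, rose by 0.49. The nuclear receptors Ppard and Ppara, which sense fatty acids, rose by 0.96 and 0.82, from means of 23.7 and 2.99 FPKM. Acadl, the long-chain dehydrogenase, was the gene that fell, by 0.23, and its call was lost without control library 1 or IL-22 library 2.

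Genes that supply NADPH, which sterol and fatty-acid synthesis consume, moved in both directions. Of 8 tested, 4 rose and 4 fell, beside 27.6% and 30.8% of all tested rows. Idh1, the cytosolic isocitrate dehydrogenase, rose from a mean of 16.1 to 33.6 FPKM (difference 1.02, limma adjusted p = 1.21e-05), and H6pd, the hexose dehydrogenase of the endoplasmic reticulum, rose by 0.67. The folate enzymes diverged: Aldh1l1 rose from a mean of 2.04 to 6.14 FPKM (difference 1.23), whereas Mthfd1 fell from 71.5 to 33.3 FPKM (difference -1.08, limma adjusted p = 3.98e-06).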
